A study of Mus with 4 samples.

Results

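The replication-dependent histone genes supply the histones that package newly made DNA. They were taken here as the protein-coding genes of the RefSeq GRCm38 annotation whose symbol starts with Hist1h to Hist4h or with H1f1 to H1f5, H2ac, H2bc, H3c or H4c. The rule found 62 genes of the 21887 protein-coding genes on the 21 main chromosomes, and it used no measured value. The study profiled where TBX3, a T-box transcriptional repressor downstream of Wnt signaling in the liver, sits on chromatin in primary mouse hepatocytes. All 4 libraries came from hepatocytes that carry pT2-SVNeo-EF1-eGFP-P2A-Tbx3-HA, a Sleeping Beauty transposon from which an EF1 promoter drives eGFP together with HA-tagged TBX3. The 2 TBX3 ChIP libraries were precipitated with an anti-HA antibody and the 2 Input libraries hold sheared chromatin before precipitation. The factor was thus tagged, overexpressed and measured in cultured, expanding cells, and the labels give neither the age of the animals nor a second condition. A binding track holds no expression, so the labelled cell type could not be checked against markers.

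Nucleosomes are built from pairs of the core histones H2A, H2B, H3 and H4, and the linker histone H1 binds where DNA enters and leaves them. The replication-dependent genes lie in clusters, have no introns in their common form, are transcribed mainly in S phase and make messages that end in a stem-loop in place of a poly(A) tail. NPAT drives their transcription at the histone locus body, HINFP acts on H4 promoters, and SLBP binds the stem-loop. The 62 genes comprised 5 H1, 17 H2A, 16 H2B, 12 H3 and 12 H4 genes, and 57 of them were shorter than 1 kb. They fell into 3 clusters, split where neighbouring members lay more than 500 kb apart. The chromosome 3 cluster held 10 genes in 50.3 kb (chr3:96219885-96270192), the first chromosome 13 cluster held 22 in 327.9 kb (chr13:21715711-22043658) and the second held 30 in 403.9 kb (chr13:23531044-23934913).

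The deposited track gives 1 score for each base, the −log10 of a Poisson p-value for the pile of ChIP reads against the level expected from Input. It holds no value for single libraries. No spread between replicates could therefore be measured, no test was made, and every comparison below is a description of 1 track. Whether that track joins both ChIP libraries is not stated. The scores were traced back to whole ChIP reads and expected levels, which gave 30089590 reads in all and an expected level of at least 2.43 reads at every base. At that level 8 reads give a score of 3.02, 9 give 3.65, 11 give 5.01 and 16 give 8.98. Among isolated stretches of reads, 963067 held 2 reads and 39454 held 1, while 403404 held 3 and 448400 held 4. Reads that fall independently would leave more stretches of 1 than of 2, so counting intervals from single reads are likely too narrow. Whether the mates of a pair were counted as separate reads was not settled by these counts. Counting intervals are therefore also given with each 2 reads taken as 1 pair. Chromosome 3 was covered at 0.811 and chromosome 13 at 1.05 times the median autosome.

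The histone genes carried higher scores than most genes, but low ones in absolute terms. The promoter score, the highest value found at most 1 kb from a gene's start or end coordinate, had a median of 3.65 over the 62 genes, against 2.44 over all protein-coding genes and 1.97 over the 1519 other protein-coding genes shorter than 1 kb. Of the 62 genes, 50 reached a score of 3, which 29.0% of all protein-coding genes and 26.1% of those shorter than 1 kb did, the histone genes included. A score of 5 was reached by 18, against 3.60% of all protein-coding genes and 2.79% of the short ones, or 1.84% with the histone genes left out. A false discovery rate of 5% over all bases lies at a score of 5.46, which 14 of the 62 genes and 2.26% of all genes reached. With each 2 reads taken as 1 pair, 14 of the 62 genes reached a score of 3, against 2.30% of all genes, and 1 at a score of 5, against 0.452%. The median histone gene stood at percentile 88.4 of all protein-coding genes. The mean score over the same windows was 0.679 at the median histone gene and 0.333 at the median of all genes, so the difference was not limited to single high bases.

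Many of these genes share their surroundings, and the counts above hold some signals more than once. The 62 genes had 46 distinct positions of the highest score, and 31 genes shared theirs with another member. Of the 46 positions, 13 reached a score of 5. When members with overlapping windows were joined, 33 stretches remained, of which 28 reached a score of 3 and 12 a score of 5. Positions and windows of other genes were not joined in this way, so these counts have no like share over all genes. H2bc7 and H2ac7, for example, owe their score of 6.51 to the same bases between them, and H2bc6 and H1f4 likewise share 1 position. H2bc23, H2ac23 and H4c17 share another at 5.61.

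**Figure D1:**
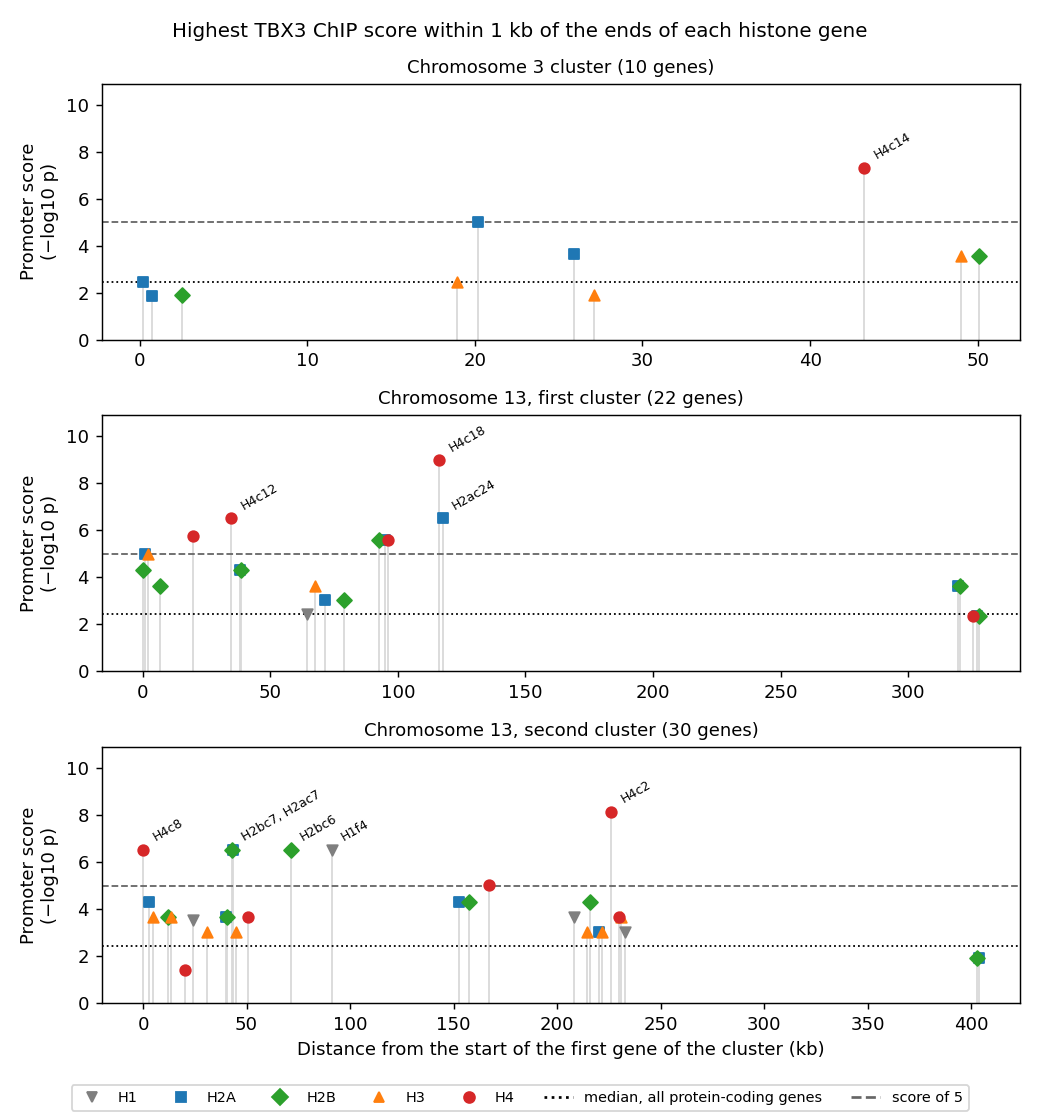
Promoter score (−log10 p, vertical axis) of each of the 62 histone genes against its distance in kb from the start of its cluster, 1 panel per cluster, with colour and symbol for the histone class. The 3 highest points, H4c18, H4c2 and H4c14, are H4 genes, 1 in each cluster, and the dotted line marks the median of all protein-coding genes (2.44).

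The H4 genes stood highest. H4c18 (Hist1h4n, gene 319161, chr13:21831792-21832197) had the highest promoter score of the 62, 8.98, from 16 reads where 2.43 were expected, and 0.434% of protein-coding genes scored as high. The exact 95% Poisson interval of those 16 reads runs from 9.15 to 26.0, or from 6.91 to 31.5 with 8 pairs, and covers counting error alone. It makes no allowance for the choice of the highest base of the highest gene. Its highest base lay inside the gene, 136 bp from the nearer end.

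H4c2 (Hist1h4b, gene 326620, chr13:23756937-23757386) followed with a score of 8.13 from 15 reads, also inside the gene. H4c14 (Hist2h4, gene 97122, chr3:96262934-96263317) scored 7.31 from 14 reads, 35 bp outside the gene. H4c8 (Hist1h4h, gene 69386, chr13:23531044-23531478) and H4c12 (Hist1h4k, gene 319160, chr13:21750145-21750553) both scored 6.51 from 13 reads. Their highest bases lay outside the genes, 871 bp from H4c8 and 229 bp from H4c12, so the score of H4c8 comes from DNA near the gene rather than from the gene itself. The 5 highest members by promoter score, with ties ordered by mean score, were thus all H4 genes, and each encodes the same core histone.

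**Figure D2:**
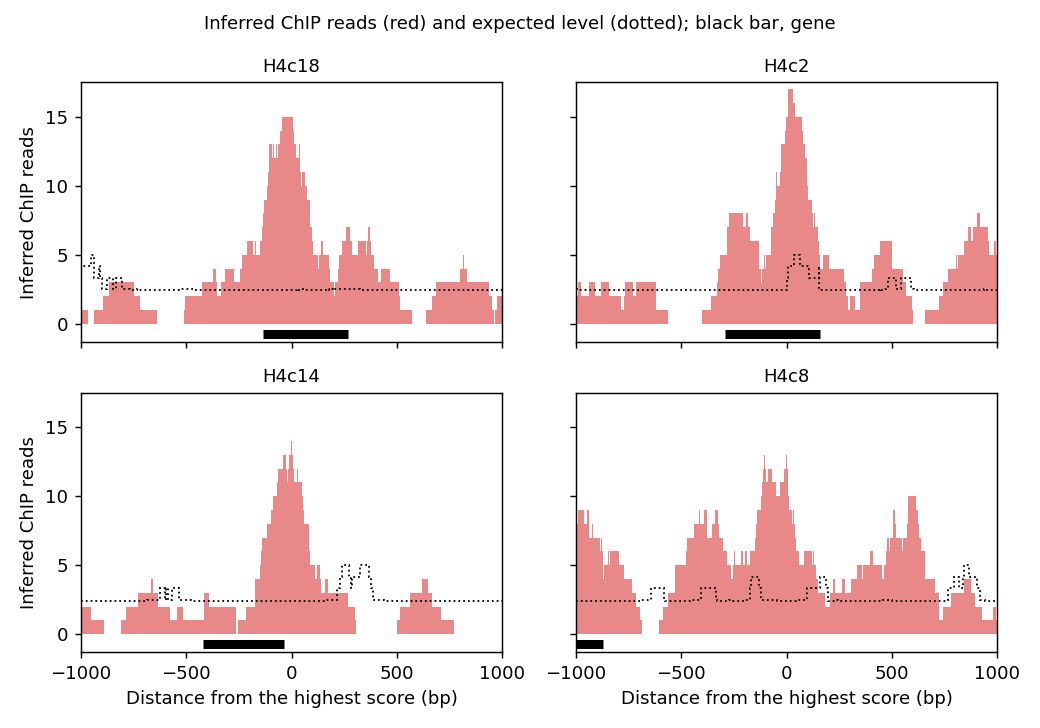
Inferred ChIP reads (red) and the expected level (dotted) against distance in bp from the highest score for H4c18, H4c2, H4c14 and H4c8, with the gene as a black bar. The peaks of H4c18 and H4c2 lie over the gene, that of H4c14 at its edge and that of H4c8 871 bp away from it.

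H2ac24, H2ac7, H2bc7, H2bc6 and H1f4 had the same score as H4c8 and H4c12, 6.51, and stood below them only by their mean score. H2ac24 (Hist1h2ap, gene 319171, chr13:21833024-21833475) encodes an H2A and has its highest base 714 bp outside the gene. That base lies inside H4bc24 (Hist1h2br), an H2B gene outside the chosen set with the same score, named after its values were seen. H2ac7 (Hist1h2ad, gene 319165, chr13:23574381-23574915) and H2bc7 (Hist1h2bf, gene 319180, chr13:23573760-23574207), an H2A and an H2B gene, have theirs in the 173 bp that separate them. The linker histone gene H1f4 (Hist1h1e, gene 50709, chr13:23621777-23622558) has its highest base 15 bp from the gene. The highest H3 gene was H3c10 (Hist1h3h, gene 319152, chr13:21717628-21718115), with 5.01 from 11 reads at a base it shares with H2ac13.

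The lowest score of all also belonged to an H4 gene. H4c6 (Hist1h4f, gene 319157, chr13:23551286-23551668) scored 1.42 from 5 reads, and 91.0% of protein-coding genes scored as high. H2ac20 on chromosome 3 followed with 1.84 from 6 reads, and H2bc21 beside it had 1.90. H3c14 was the lowest H3 gene at 1.90, H1f5 the lowest H1 gene at 2.44 and H4c9, H2ac11 and H2bc11 tied as the lowest genes of the first chromosome 13 cluster at 2.37. In all, 9 of the 62 genes lay below the median of all protein-coding genes, 3 on it and 50 above it. H2ac1 and H2bc1, an H2A and an H2B gene known for expression in the testis, lay among these 9, both at 1.90.

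By histone class, the H4 genes had a median promoter score of 5.68, with a range from 1.42 to 8.98. The medians of the other classes were close together, at 3.65 for H2A, 3.65 for H2B, 3.55 for H1 and 3.29 for H3. A score of 5 was reached by 8 of 12 H4 genes, 5 of 17 H2A, 3 of 16 H2B, 1 of 5 H1 and 1 of 12 H3 genes, against 3.60% of all protein-coding genes. With each 2 reads taken as 1 pair, H4c18 alone reached it, and the medians were 3.53 for H4 and 2.09 for each other class. The ranges overlap: the highest H1, H2A and H2B genes, at 6.51, lay above the H4 median. The 50 genes other than H4 had a median of 3.65, so the height of the family above all genes did not rest on the H4 genes alone. Of them 10 reached a score of 5, many at shared positions. H2ac13 shares its position with H3c10, H2bc23 with H2ac23, H2bc7 with H2ac7, and H2bc6 with H1f4. Of the 8 H4 genes at a score of 5, H4c17 shares its position with H2bc23 and H2ac23. That base lies 786 bp outside H4c17 and 42 bp from H2ac23. At most 500 bp from its ends H4c17 scored 3.02.

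Within the classes the genes were spread unevenly. Of the H4 genes not yet given, H4c11 scored 5.75, H4c17 5.61 and H4c3 5.01. H4c1 and H4c4 were both at 3.65, and H4c9 lay below the median of all genes. The 5 linker histone genes ran from H1f4 at 6.51 through H1f2 at 3.65, H1f3 at 3.55 and H1f1 at 3.02 to H1f5 at 2.44, so 1 gene stood apart from the others. The H3 genes lay close together, with quartiles of 3.02 and 3.65, and all 7 of them in the second chromosome 13 cluster lay between 3.02 and 3.65. The H2A genes had medians of 4.31, 3.98 and 3.04 in the first and second chromosome 13 clusters and on chromosome 3, and the H2B genes 3.65, 4.31 and 2.73.

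**Figure D3:**
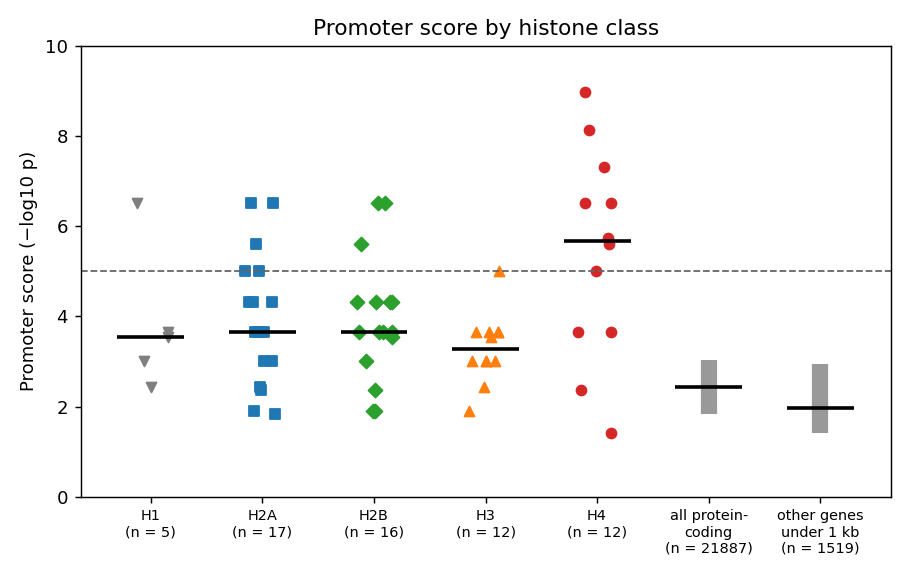
Promoter score (−log10 p) of each histone gene by class, with the median as a black bar, beside the median and quartiles (grey) of all protein-coding genes and of the other genes shorter than 1 kb. The H4 genes have the highest median, 5.68, and also the lowest single value, 1.42.

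By cluster, the first chromosome 13 cluster had a median promoter score of 4.31, the second 3.65 and the chromosome 3 cluster 2.99. All 829 protein-coding genes of chromosome 13 had a median of 2.44 and the 983 of chromosome 3 a median of 1.90, so each cluster lay above its own chromosome. In the chromosome 3 cluster 2 of 10 genes reached a score of 5, H4c14 and H2ac19. In the chromosome 13 clusters 9 of 22 and 7 of 30 did, against 3.60% of all genes. With each 2 reads taken as 1 pair, 1 gene of the first cluster and 0 of the others did, and the cluster medians fell to 2.79, 2.09 and 1.77, against 1.45 over all genes. Over the whole spans, between genes included, the mean was 2.15 reads in the first chromosome 13 cluster, 2.03 in the second and 1.83 on chromosome 3. The 500 kb on either side had 2.01, 1.90 and 1.41 reads. The spans as a whole thus differed little from their surroundings on chromosome 13, and more on chromosome 3.

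Genes that lie among the histone genes but make no histone lay at the level of all genes. The 9 such protein-coding genes, all on chromosome 13, had a median promoter score of 2.44, equal to that of all genes, and none reached 5, which 3.60% of all genes did. The highest was Pom121l2 at 3.02, and the iron-metabolism gene Hfe, which lies in the second chromosome 13 cluster, was at 2.44. These 2 were named after their values were seen.

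By reads over the gene body the H4 genes stood above the other classes, though the highest base lay inside the gene in only 6 of 12. This measure, the mean number of ChIP reads over a gene body, was chosen after the values were seen. It had a median of 6.45 over the 12 H4 genes, against 3.79 for H1, 2.55 for H2A, 2.06 for H2B and 2.44 for H3. The other protein-coding genes shorter than 1 kb had a median of 1.77. The H2B class includes 5 genes of 1 kb or longer, which had a median of 1.95. The middle one of the 11 shorter H2B genes, H2bc12, had 2.44. Averaged over each H4 body, the expected level had a median of 2.44 reads, near its floor of 2.43, and a highest value of 2.98, at H4c2. Input was not at the floor throughout: inside H4c2 the expected level reached 5.01 at bases with 15 and 16 reads.

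H4c2 had the most reads over its body, 9.15, followed by H4c18 with 8.99, H4c3 with 7.81 and H4c12 with 7.70. H4c11 had 7.51 and H4c8 7.37. These 6 H4 genes were the 6 highest of all 1576 protein-coding genes shorter than 1 kb. H4c1 with 5.53, H4c17 with 5.40 and H4c4 with 5.26 followed further down. At the median H4 gene 0% of the bases of the body had no read, against medians from 8.06% for H1 to 22.2% for H2B in the other classes and 28.6% for the other genes shorter than 1 kb.

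A mean of at least 5 reads was found in 9 of the 12 H4 genes and in 2 other histone genes, H2bc7 with 5.40 and H2bc13 with 5.19, against 1.27% of all protein-coding genes shorter than 1 kb, or 0.592% with the histone genes left out. The 3 H4 genes below it were H4c14 with 4.18, H4c9 with 3.32 and H4c6 with 0.783. H4c14 thus had the third highest promoter score with moderate coverage of its body, and its peak sits at the edge of the gene. Outside the chosen set, H4f16 (Hist4h4), an H4 gene on chromosome 6 that carries such a name only as an older symbol, had 4.80 reads over its body and a promoter score of 3.65, and was named after its values were seen.

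Summed over the bodies of the 12 H4 genes, 4930 bases in all, there were 202 reads where 82.8 were expected, a ratio of 2.44. Its 95% interval runs from 2.11 to 2.80, or from 1.99 to 2.96 with each 2 reads taken as 1 pair. The same ratio was 1.26 for H1, with an interval by pairs from 0.893 to 1.69, and 1.03 for H2A, from 0.807 to 1.29. It was 0.995 for the H2B genes shorter than 1 kb, from 0.731 to 1.32, and 0.931 for H3, from 0.705 to 1.21. The other protein-coding genes shorter than 1 kb had a ratio of 0.643 and all protein-coding genes 0.606, so the background ratio was below 1. Every histone class lay above both. The expected level has a floor at the genome-wide level, and the part of this floor in the low ratios was not tested. These intervals cover counting error only and hold no difference between the 2 ChIP libraries.

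**Figure D4:**
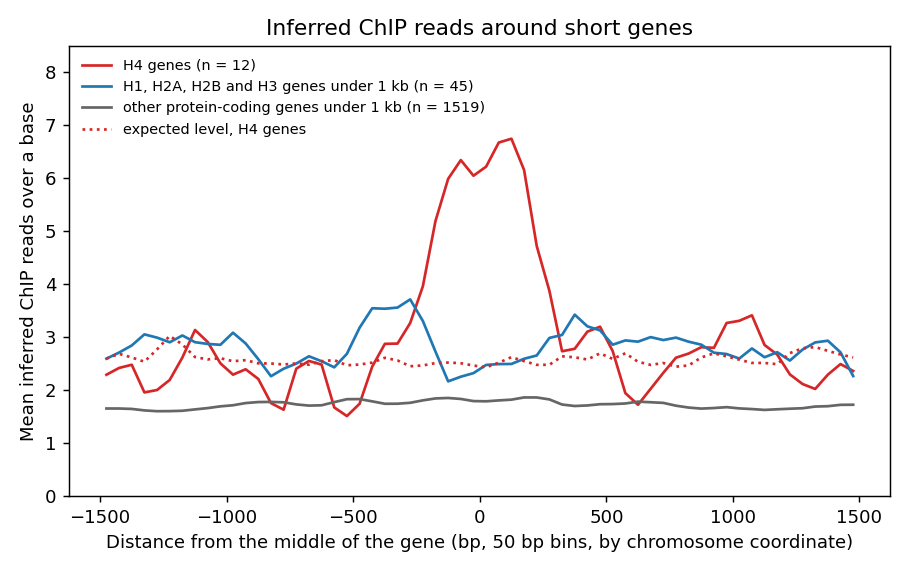
Mean inferred ChIP reads over a base (vertical axis) in 50 bp bins around the middle of the 12 H4 genes, of the 45 other histone genes shorter than 1 kb and of 1519 other short genes, with the expected level of the H4 genes dotted. The H4 genes rise to 6.75 reads within 200 bp of the middle and fall to between 1.51 and 3.88 reads in the bins from 275 to 625 bp away.

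Around the H4 genes the raised stretch had the width of the gene. The H4 genes are 375 to 455 bp long, and bins with a mean of over 5 reads began 175 bp before the middle and ended 175 bp after it. The bin 125 bp after the middle was the highest at 6.75 reads. The 1 kb on either side of an H4 gene had a median of 2.74 reads, close to the 2.69 of all histone genes. Over the bodies, 11 of 12 H4 genes had more reads than over the 1 kb on either side, as did 48.2% of all protein-coding genes shorter than 1 kb. At least 2 times as many were found in 7 of the 12, against 9.33% of the short genes. The exception was H4c6, with 0.783 reads over its body and 1.24 beside it.

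Among the 50 other histone genes, 22 had more reads over the body than beside it, and 3 had at least 2 times as many, shares near those of all short genes. At the median, both their bodies and their surroundings held more reads than those of the other protein-coding genes shorter than 1 kb. The bodies of the 50 genes had a median of 2.45 reads, against 1.77 for the other short genes, and the 1 kb on either side had 2.69 against 1.70. The 50 include 5 H2B genes of 1 kb or longer, with medians of 1.95 and 2.68 reads. The 1 kb beside a histone gene can hold another member, as H4c1 lies beside H3c1, so some reads enter more than once. The H1 genes had 3.79 reads over the body and 2.42 beside it at the median. H3c10 had 1.71 reads over its body and 5.09 over the 1 kb on either side, the highest such value of the 62 genes.

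**Figure D5:**
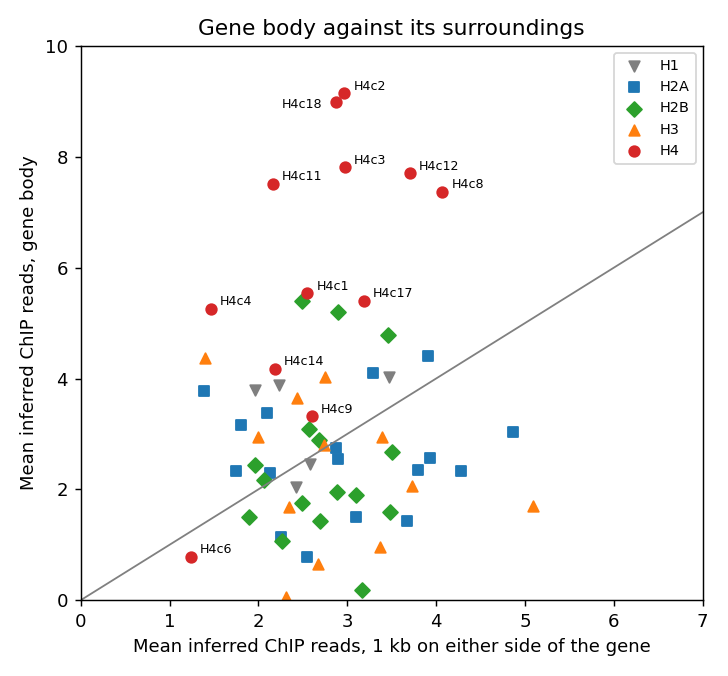
Mean inferred ChIP reads over the gene body against the mean over the 1 kb on either side, for each of the 62 histone genes by class, with the line of equal values. Of the 12 H4 genes 11 lie above the line, and H4c6 lies below it.

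H4 genes encode the same core histone and other histone genes of 1 class resemble each other closely, but their DNA sequences were not compared here. How reads that match several copies were placed is not given in the sources used here. Values of single genes within a class are therefore uncertain. The sum over the 12 H4 genes is unchanged by reads that move among them. It would change with reads that move to or from H4 genes outside the set, such as H4f16. The part of read placement in the H4 result was not tested.

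H2A and H2B genes often lie side by side with a short stretch of DNA between them. There were 11 neighbouring H2A and H2B pairs with a gap of at most 500 bp, and their gaps were 163 to 280 bp long. The gaps had a median of 3.29 reads and the bodies of the paired genes a median of 2.39. In 5 of the 11 pairs the gap had more reads than either gene. Gaps between other short genes were not measured, so this count has no background. The gap between H2bc7 and H2ac7 was the highest with 7.62 reads, and that between H2ac12 and H2bc12 the lowest with 0.768.

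No stretch of the clusters met the rule for a called region, a score of at least 5 over 200 bp with gaps of up to 30 bp joined, which 125 stretches of the main chromosomes did. With a score of 3 in place of 5 there were 4 regions in the clusters, of 773 in all. They lay at H4c18 and H4c11 (224 bp each), at H4c8 (261 bp, at the gene itself, with a highest score of 5.01) and at H4c14 (200 bp). All 4 are thus at H4 genes. With a minimum length of 100 bp there were 2 of 640, at H4c18 (174 bp) and H4c14 (118 bp).

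Histone genes used outside replication lay lower as a group. The 13 replication-independent histone genes with a value, among them variants that are put into chromatin outside S phase, had a median promoter score of 2.44, equal to that of all genes, and 1 of them reached 5, where 3.60% of all genes did. That gene was H2az2 (H2afv), which encodes a form of the variant H2A.Z, at 17.3 from 25 reads. Macroh2a2 was next at 4.02. H2afy3 and H2afb1 of this list matched no single protein-coding gene and were left out.

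Genes for histone transcription and histone mRNA processing had a median of 2.34, and 1 of 19 reached a score of 5, again beside 3.60% of all genes. That gene was Hinfp, the H4 promoter factor, at 14.5 from 22 reads. Srrt, whose product works with the cap-binding complex, was next at 4.31. The 20 histone chaperone genes, whose products escort histones to DNA, had a median of 3.02, against 2.44 over all genes. Asf1b, an H3 and H4 chaperone of dividing cells, was highest at 8.98, and Hat1, which acetylates newly made H4, reached 6.51. The remaining 18 were below 5. Thus 2 of the 20 reached a score of 5, against 3.60% of all genes, and 11 reached 3, against 29.0%.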

How the data were processed

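ChIP-seq of HA-tagged TBX3 and Input was made from primary mouse hepatocytes, with 2 libraries each. The authors aligned reads with Bowtie2, sorted them with SAMtools and made 1 track with MACS2 on mm10, whose deposited values are −log10 p-values per base. Versions, duplicate handling, the placement of reads with several matches and the joining of libraries are not given in the sources used here. Scores were turned into whole reads and expected levels under a Poisson distribution with Python 3.11.15, numpy 2.4.6 and scipy 1.17.1, and matched at 99.99966% of bases and 98.275% of those with a score of at least 5. Reads were extended to 150 bp. The steps were checked on simulated reads. The gene table gives no strand, so both gene ends were used alike and windows reach 1 kb to each side.

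The members and lists were chosen with earlier results of these data known. Named members are the 8 highest and 3 lowest by promoter score and the highest and lowest of each class and cluster. From the other lists, the 2 highest and any at a score of 5 were named. Alternatives covered window size, read pairs, joined windows, the set of genes, the background and the region rule. Gene-body reads and the comparison with the 1 kb on either side were added after values were seen, and the H4 genes listed with them were named for that reason. The remaining H1 and H4 genes are given to complete their classes. Promoter motifs were not analysed here.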

Additional observations from a re-analysis of the deposited data

How the results depend on the processing

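No paired analysis was possible because only 1 track is at hand, with no values of single libraries. For the same reason no library could be left out. A median was taken as moved when it left the 95% order-statistic interval of its main value, and a count when it changed by over 1.5 times. Of 75 alternatives, 51 did neither. Taking each 2 reads as 1 pair, which lowers the scores of enriched bases and raises those of bases with 0 or 2 reads, left 1 member at a score of 5 (0.452% of all genes) and 14 at 3 (2.30%), with a median promoter score of 2.09 against 1.45 over all genes, a mean score of 0.564 against 0.337 over all genes, where it rose from 0.333, and a percentile of 81.5. The class medians became 3.53 for H4 and 2.09 for H1, H2A, H2B and H3, and the cluster medians 2.79, 2.09 and 1.77 in the order first and second on chromosome 13 and chromosome 3. The replication-independent histone genes, the transcription and processing genes and the neighbouring genes each came to 1.45. Windows of 500 bp gave a member median of 3.02 against 1.90 over all genes, 2.95 for H2B, 3.29 for the second chromosome 13 cluster and 1.42 for the transcription and processing genes. Windows of 2 kb gave a percentile of 81.2. Joined windows left 28 of 33 stretches at a score of 3, with no like share over all genes. Called regions rose from 0 to 4 with a score of 3 and to 2 with a minimum of 100 bp. The alternatives for class, cluster and list medians and the set with 5 genes of older names, in which the H4 gene-body median was 5.53, were chosen after seeing the data. The transcription start alone could not be used without strand. At this depth scores move in steps of whole reads, so 1 read separates 4.31 from 5.01.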
